A study of Mus musculus with 27 samples.

Results

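Among 27 mouse prostate tumours, 12 had higher and 15 had lower expression of the genes of chromosome 19 as a whole. The split was made on the deposited log2 values. Each gene with a mean of at least 5.79 over the tumours, the median level of all rows of the table, was set against its own median over the 27 tumours. Each tumour was then centred on its median over all genes, and the median over the 426 chromosome 19 genes that met the minimum is called its chromosome 19 shift. Tumours with a shift above 0.05 are called the higher tumours, and the rest the lower tumours. The groups were thus chosen by the expression of chromosome 19 itself, so values of chromosome 19 genes are given as a description, without a test, and only genes on other chromosomes were tested. Those genes entered the shift only through the centring of each tumour on its median over all genes.

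All tumours came from transgene-positive male F2 mice of a cross between C57BL/6-Tg(TRAMP)8247Ng/J and PWK/PhJ, with transgene-negative sires and transgene-positive dams, and each was measured on 1 array. Tumours were collected at 30 weeks or at an earlier humane endpoint, snap frozen, and used for total RNA. No tumour carries a treatment label, all share the transgene, and no transgene-negative or normal prostate was analysed here. The genotype of each F2 animal and the DNA copy number of each tumour were not analysed here.

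As background, the TRAMP transgene places SV40 T antigen, which binds the tumour suppressors p53 and Rb, under the probasin promoter, active in prostate epithelium; PWK/PhJ is a wild-derived inbred strain. Tumours of this model are often neuroendocrine. Mouse chromosome 19 is the shortest mouse autosome; it carries the gene of menin, a tumour suppressor of endocrine glands, and genes of NF-kappaB and JAK signalling, fatty acid desaturation and DNA repair. A shift of many neighbouring genes together is a property of a chromosome in a tumour's RNA, and expression arrays do not measure the number of its copies.

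The arrays were alike in scale, with medians between 5.67 and 5.82 on the log2 scale and correlations between arrays of 0.891 to 0.986. The proliferation gene Mki67 ran from 9.98 to 11.61, while other mitosis genes were lower in some tumours, down to 6.08 for Ska3. The neuroendocrine granule gene Chga ran from 5.91 to 11.55, and the prostate gene Hoxb13 was at or above 5.79 in 23 of 27 tumours. Pbsn, which encodes probasin, was at or above that level in only 2 tumours, with a median of 3.58.

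The shift of chromosome 19 differed widely between tumours. Among the higher tumours it was 0.087 in P219, 0.180 in P237, 0.206 in P509, 0.224 in P217, 0.231 in P1225, 0.236 in P569, 0.239 in P502, 0.250 in P268, 0.268 in P1276, 0.297 in P966, 0.313 in P425 and 0.328 in P500. Among the lower tumours it was -0.255 in P1394, -0.233 in P1218, -0.209 in P503, -0.196 in both P474 and P235, -0.195 in P233, -0.170 in P803, -0.167 in P311, -0.160 in P902, -0.149 in P609, -0.136 in P1469, -0.126 in P912, -0.095 in P471, 0.000 in P757 and 0.022 in P619. The tumours nearest the threshold were therefore P619 just outside it and P219 just inside it. All higher tumours but P219 were at 0.180 or more, and all lower tumours but P757 and P619 were at -0.095 or less. The mean shift was 0.238 ± 0.064 (SD, n = 12) in the higher and -0.151 ± 0.078 (SD, n = 15) in the lower tumours, a difference of 0.389.

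**Figure D1:**
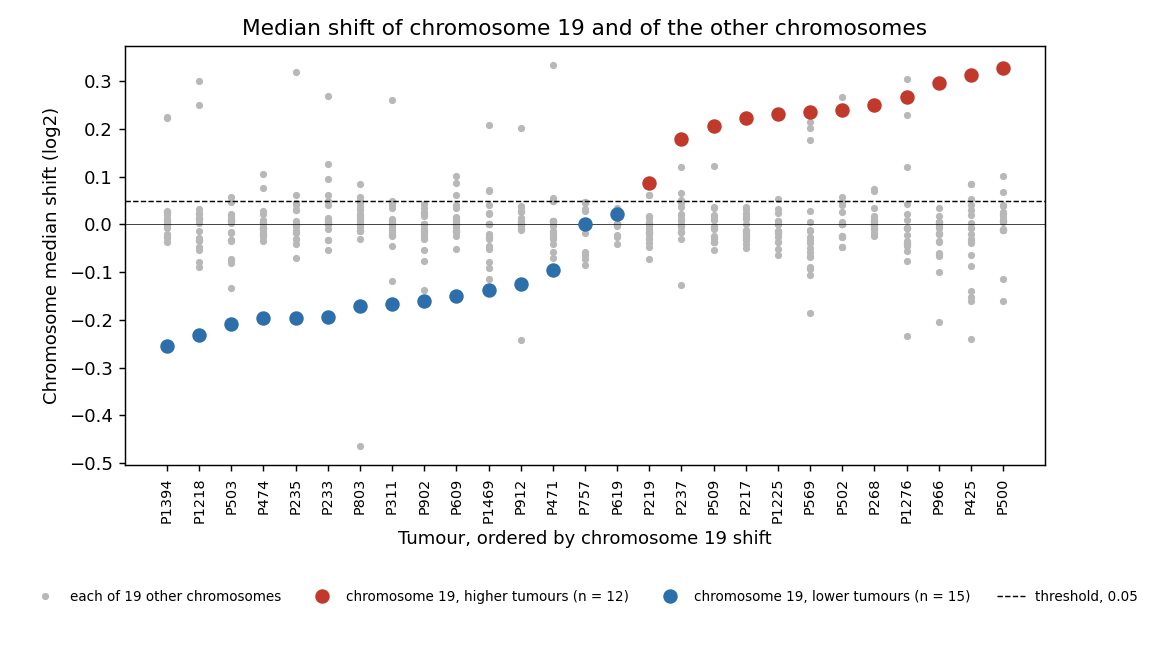
The chromosome 19 shift (log2, median over 426 genes) of each of the 27 tumours, in order of the shift and coloured by group, with the medians of the 19 other chromosomes as grey points and the threshold of 0.05 as a dashed line. The higher tumours lie between 0.087 and 0.328 and the lower tumours between -0.255 and 0.022.

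In the higher tumours, 63.6% to 77.7% of the 426 genes lay above 0 after both centring steps, by gene and by tumour, against 18.1% to 52.3% in the lower tumours. Because the shift is the median of these genes, a majority above 0 in each higher tumour follows from the rule. As a description of values that the rule used, chromosome 19 varied more between tumours than any other chromosome. The SD of its shift over the 27 tumours was 0.209, whereas that of the other chromosomes ran from 0.0175 for chromosome 5 to 0.112 for X.

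Genes were then placed in their order along chromosome 19 and divided into 12 neighbouring windows of 35 or 36 genes. Every window was higher on average in the higher tumours, by 0.268 (from Tmem138 to Gna14) to 0.519 (from Ide to Hoga1). The window from Nxf1 to Cpsf7 differed by 0.495, and all 36 of its genes had a difference above 0. For comparison, 351 windows of like size on other chromosomes had differences between -0.170 and 0.150, below each of the 12 windows of chromosome 19. The groups were chosen by the genes of these 12 windows, so this comparison is a description. The SD over the 27 tumours does not use the groups, but it too is a description, of values that the rule used. It ran from 0.153 to 0.293 for the windows of chromosome 19. For the windows elsewhere its median was 0.105 and its highest value 0.269, so the ranges overlapped.

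**Figure D2:**
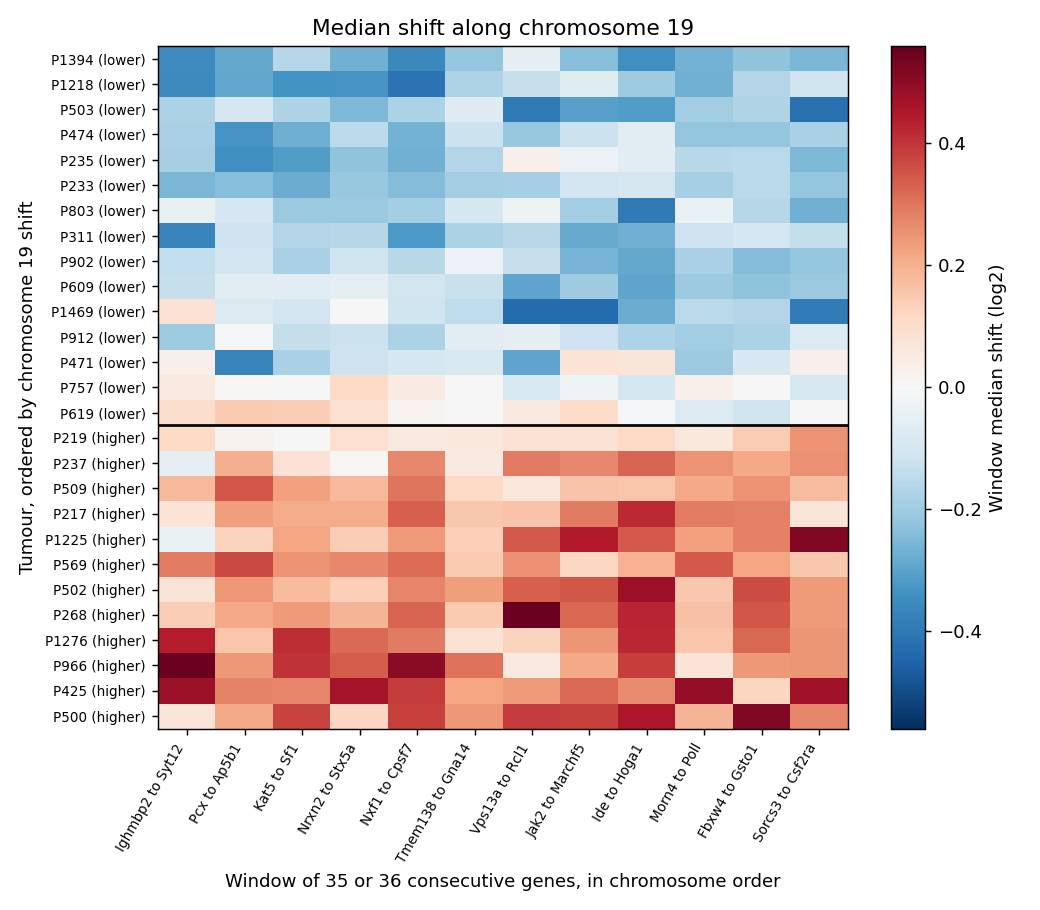
The median level of each of 12 windows of neighbouring genes along chromosome 19 in each tumour as a colour, red above 0 and blue below. Levels are log2, relative to each gene's median over the tumours and then each tumour's median over all genes. Windows are in gene order and tumours in order of the shift. Window differences between the groups run from 0.268 to 0.519.

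Single tumours kept to their side along the chromosome with few exceptions. Of the 144 window values of the higher tumours, 141 lay above 0, and of the 180 of the lower tumours, 157 lay below 0. Every window was above 0 in 9 of 12 higher tumours and below 0 in 10 of 15 lower tumours. The medians of the first 213 and the last 213 genes correlated at r = 0.870 over the 27 tumours, which share their array between both values; this is a description, since both sets entered the shift. Some tumours were uneven along the chromosome. P1225 was at 0.137 over the first 213 genes and 0.378 over the last, and P1218 at -0.327 and -0.148. In P966, with 0.391 and then 0.210, and in P1469, with -0.054 and then -0.255, the first part was the higher.

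Gene by gene, the difference between the group means had a median of 0.42 (log2) over the 426 genes, which is 1.34-fold, with quartiles of 0.24 and 0.59. The difference was above 0 for 400 of them (93.9%), against a background of 42.2% of the 12568 genes on other chromosomes at the same minimum. It was above 0.2 for 333 (78.2%, background 13.5%) and below -0.2 for 8 (1.88%, background 18.2%). These shares restate how the groups were made.

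The difference depended on the level of the gene. Among the 300 chromosome 19 genes below the minimum, which did not enter the shift, the median difference was -0.014 and 45.3% lay above 0. Among the 8832 genes elsewhere below the minimum, the median was -0.029 and 38.7% lay above 0. The difference was above 0.2 for 12.7% of the 300 genes and 7.20% of those elsewhere. It was below -0.2 for 2.67% and 5.96%. The 300 genes include chemosensory and immune genes. Of 61 olfactory receptor (Olfr) genes, 60 were below the minimum, and the median over all 61 was -0.05. Of the 20 genes of the Ms4a family, which includes markers of B cells and macrophages, 5 met the minimum and 10 had a difference above 0. Among genes with a mean from 5.79 to 7 the median difference was 0.22, from 7 to 8 it was 0.47, from 8 to 9 it was 0.53, from 9 to 10 it was 0.50, and for the 15 genes from 10 to 15 it was 0.37.

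**Figure D3:**
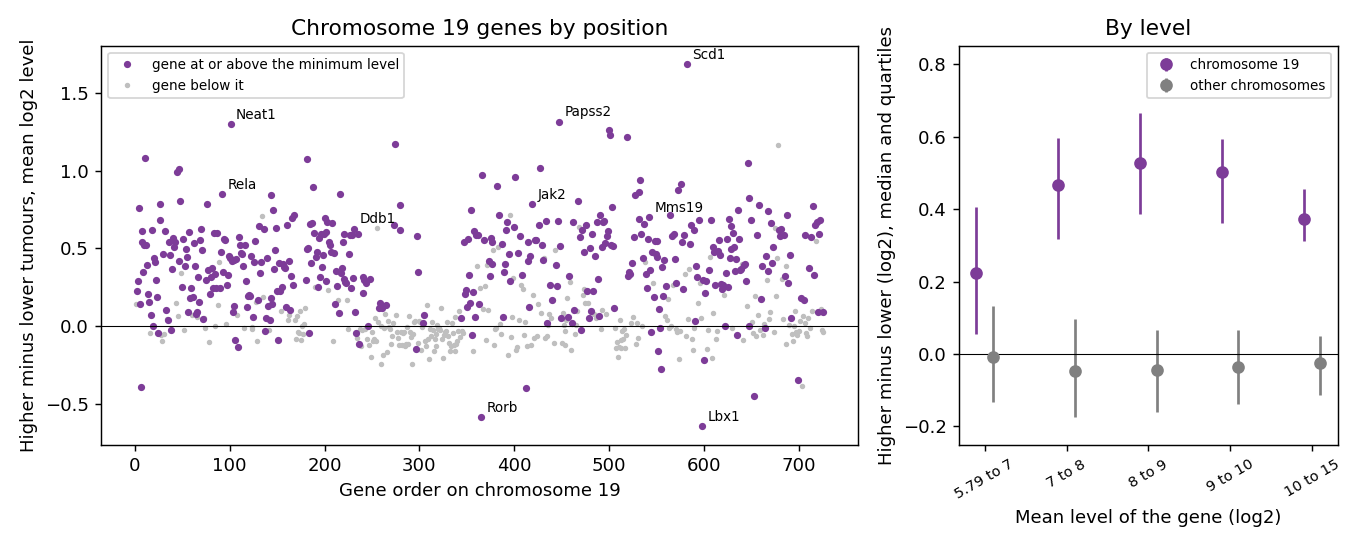
The difference between the mean of 12 higher and 15 lower tumours (log2) for genes of chromosome 19 in gene order (left), and its median and quartiles by mean level for chromosome 19 and the other chromosomes (right). Of the 426 genes at or above the minimum (purple), 400 lie above 0; grey points on the left are genes below the minimum.

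The groups did not overlap at all for 6 chromosome 19 genes, named here after their values were seen: Osbp, Fam160b1, Mms19, Ganab, Stx5a and Ddb1 (background 0% of 12568 genes elsewhere). Ddb1, a subunit of the complex that recognises ultraviolet damage and of the CUL4 ubiquitin ligase, had a lowest, median and highest level of 10.28, 10.56 and 11.02 in the higher tumours and of 9.59, 9.99 and 10.26 in the lower tumours. Its means differed by 0.63 ± 0.08 (SE). Stx5a, which encodes a syntaxin of transport between endoplasmic reticulum and Golgi, ran from 8.87 to 9.52 in the higher and from 8.28 to 8.74 in the lower tumours. Their gaps were narrow, 10.28 against 10.26 for Ddb1 and 8.87 against 8.74 for Stx5a.

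Genes of cell division and DNA maintenance formed one of 7 lists of chromosome 19 genes described by role. All 17 measured members met the minimum and had a difference above 0, with a median of 0.46. Over all 426 chromosome 19 genes at the minimum, 93.9% had a difference above 0, with a median of 0.42. The counts of this and the other lists are to be read beside that share, and they too follow from how the groups were made. Mms19, which helps to load iron-sulfur clusters into DNA repair enzymes, had a lowest, median and highest level of 8.68, 8.91 and 9.34 in the higher tumours and 7.85, 8.19 and 8.61 in the lower tumours, a difference of 0.70 ± 0.09 (SE). Smc5, of the SMC5/6 complex, differed by 0.72 ± 0.19 (SE) and the smallest difference was that of Poll, a DNA polymerase of end joining, at 0.21 ± 0.07 (SE).

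The mitotic members of that list overlapped widely. Kif11, the kinesin that separates spindle poles, ran from 8.12 to 11.24 in the higher and from 9.18 to 10.70 in the lower tumours, with a difference of 0.30 ± 0.27 (SE). Cep55, which acts in the final cut between daughter cells, ran from 6.33 to 9.58 and from 6.71 to 8.67. Relative to each gene's mean over the tumours, the mean level of the list was -0.63 in P425, the lowest of all tumours, and -0.06 in P219, both higher tumours. The mean over mitosis genes on other chromosomes was also lowest in P425, at -1.91, and its part in the values of Kif11 and Cep55 was not tested.

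Genes of growth control and signalling were measured for 20 of the 25 listed; 16 met the minimum, all 16 with a difference above 0, and the median over the 20 was 0.46. Rela, the main activating subunit of NF-kappaB, had a lowest, median and highest level of 8.57, 9.27 and 9.91 in the higher tumours and 7.83, 8.43 and 8.99 in the lower tumours. Its difference was 0.85 ± 0.14 (SE), and 10 of the 15 lower tumours lay below the lowest higher tumour. Jak2, a kinase of cytokine receptors, was at 8.07, 8.98 and 9.67 against 7.25, 7.99 and 9.14, a difference of 0.79 ± 0.20 (SE).

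Shoc2, a scaffold of RAS to RAF signalling, differed by 0.74 ± 0.16 (SE) and Smarca2, an ATPase of the SWI/SNF chromatin remodeller, by 0.96 ± 0.29 (SE). Men1, which encodes menin, differed less, by 0.34 ± 0.08 (SE), with 8.70, 9.05 and 9.41 in the higher and 8.41, 8.75 and 9.19 in the lower tumours. Among the long noncoding RNAs, Neat1, which builds nuclear paraspeckles, ran from 9.33 to 10.74 against 7.65 to 10.03, a difference of 1.30 ± 0.23 (SE), while its neighbour Malat1 differed by 0.44 ± 0.11 (SE). Fgf8 and Pax2, developmental genes with mean levels of 4.24 and 4.47, were below the minimum and differed by -0.03 and -0.08.

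**Figure D4:**
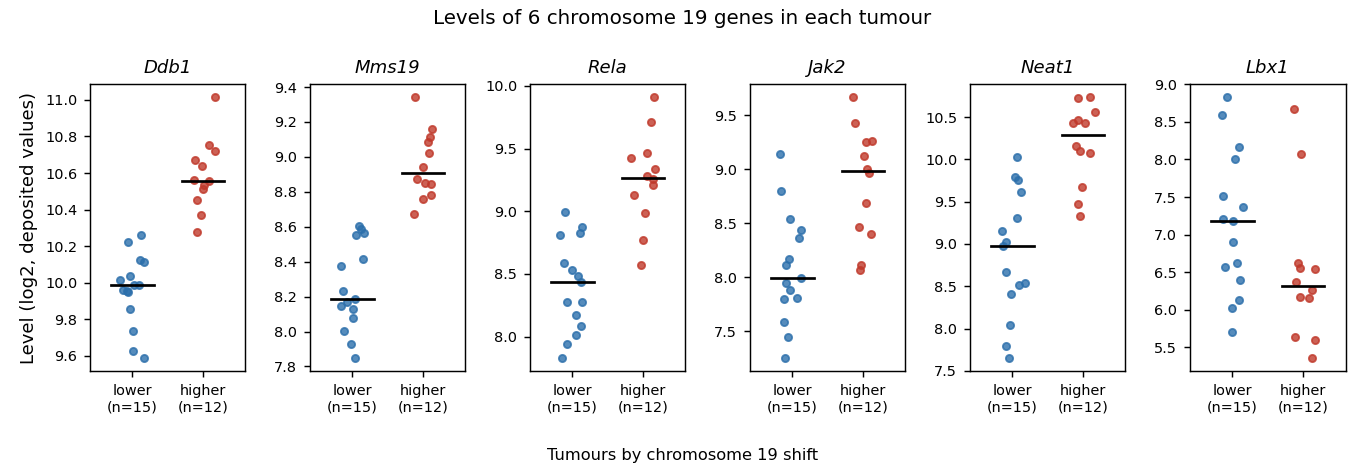
Levels (log2, deposited values) of 6 chromosome 19 genes in each of 15 lower and 12 higher tumours, with a line at each group's median. Ddb1 and Mms19 do not overlap between groups, Rela, Jak2 and Neat1 overlap in part, and Lbx1 has the lower median in the higher tumours.

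All 14 measured genes of RNA processing and translation had a difference above 0, with a median of 0.48. Their differences ran from 0.17 (Cstf2t, a polyadenylation factor) to 1.07 (Snhg1, a host of small nucleolar RNAs). Fau, which encodes a ribosomal protein fused to a ubiquitin-like protein, ran from 11.31 to 11.83 in the higher and from 10.78 to 11.65 in the lower tumours, and 13 of 15 lower tumours lay below the lowest higher tumour. The 13 measured mitochondrial genes all had a difference above 0, with a median of 0.42. Got1, listed there although it is the cytosolic aspartate aminotransferase that works with the mitochondrial one in the malate shuttle, differed by 0.72 ± 0.15 (SE). Mrpl16, a protein of the mitochondrial ribosome, differed by 0.65 ± 0.13 (SE) and Cox15, needed to make the haem of cytochrome oxidase, by 0.43 ± 0.07 (SE).

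Among the 7 lists, that of lipid genes held the largest single differences, those of Scd1 and Papss2, and the widest range, but not the highest median. Of 18 measured, 15 met the minimum, all 15 with a difference above 0, and the median over the 18 was 0.42. Scd1, the delta-9 desaturase that makes oleate, had a lowest, median and highest level of 5.96, 8.13 and 11.73 in the higher tumours and 4.8, 6.76 and 10.42 in the lower tumours. Its difference of 1.68 was the largest of the 426 genes, but with an SE of 0.75. Papss2, listed there although it makes the sulfate donor of sulfotransferases, differed by 1.31 ± 0.70 (SE), and its highest values were 11.83 in P425 and 11.30 in P219. Fads1 and Fads2, desaturases of polyunsaturated fatty acids, differed by 0.37 ± 0.20 and 0.34 ± 0.17 (SE), and Lipa, the lysosomal acid lipase, by 0.02 ± 0.18 (SE).

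The lists of immune genes and of genes of neurons and secretion hold genes of lower level, with median levels of 6.09 and 6.36, and differences between lists were not tested. Of 19 immune genes, 11 met the minimum and 9 of those had a difference above 0; the median over the 19 was 0.08. The largest difference was that of Blnk, 0.85 ± 0.48 (SE), and the lowest that of Ms4a6d, -0.17 ± 0.31 (SE). Cd274, which encodes PD-L1, differed by 0.55 ± 0.18 (SE), whereas the T cell gene Cd5 differed by -0.11 ± 0.12 (SE). Of 8 T and NK cell genes on other chromosomes, 7 had a difference above 0 (median 0.09). In bulk tumour RNA, the number of cells of a type and the RNA per cell cannot be told apart. Of 16 neural and secretory genes, 12 met the minimum, 10 of those with a difference above 0, and the median over the 16 was 0.18. Gal, which encodes the neuropeptide galanin, had a median of 5.73 in the higher and 5.83 in the lower tumours and a difference of -0.39 ± 0.43 (SE).

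Among genes at or above the minimum, the other extremes of the chromosome were as follows. Slc35g1, Plce1, Pdlim1, Stx3, Chka and Slk differed by 1.26, 1.23, 1.22, 1.17, 1.08 and 1.05. At the other end, Lbx1, a homeobox gene of muscle and spinal cord, differed by -0.64 ± 0.37 (SE), Rorb, a nuclear receptor, by -0.58 ± 0.59 (SE), Sorcs3 by -0.45 ± 0.27 (SE) and Slc1a1, a glutamate transporter, by -0.40 ± 0.26 (SE). Both groups overlapped for each of these 4 genes.

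The remaining chromosomes entered the shift only through the centring, and their own medians were tested. For each of 19 chromosomes the tumours' medians were compared between the groups by a two-sided permutation test with 100000 resamples. No chromosome was called at an adjusted p of 0.05 and none had an unadjusted p under 0.05. The lowest unadjusted p was 0.0606, for chromosome 16 (permutation test, adjusted p = 0.552), with a difference of -0.024. Chromosome 1 had the largest difference, -0.065 (permutation p = 0.128, adjusted p = 0.552). Its medians ran from -0.093 to 0.00 in the higher and from -0.115 to 0.320 in the lower tumours, and 3 of 15 lower and 0 of 12 higher tumours were above 0.15.

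Genes elsewhere were compared with limma over all 22126 named genes that could be placed on a chromosome. With Benjamini-Hochberg adjustment over all of them, 28 of the 21400 genes off chromosome 19 passed an adjusted p of 0.05 (0.131%), 8 higher (0.0374%) and 20 lower (0.0935%) in the higher tumours. This adjustment includes the 726 chromosome 19 genes, whose differences come from the choice of groups and which loosen the threshold for the rest. Adjusted over the genes off chromosome 19 alone, 0 passed, with a lowest limma adjusted p of 0.101; 1922 genes (8.98%) had an unadjusted p under 0.05. With the shift as a continuous measure, 10 passed limma's test adjusted over the genes off chromosome 19 alone, and all 10 are among the 28; this combination was added after seeing the data. The count also rested on single tumours: it was 16 without P500, 46 without P509 and 72 without P471.

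The adjusted p-values given below for single genes are those over all genes. Over genes off chromosome 19 alone, limma's adjusted p ran from 0.101 to 0.221 for the 28 called genes. In the analysis over all genes, Cmbl, which encodes a hydrolase, rose by 1.25 ± 0.24 (SE; limma adjusted p = 0.00465). Its lowest, median and highest levels were 6.40, 7.21 and 8.63 in the higher and 4.89, 5.98 and 7.23 in the lower tumours. The groups overlapped. Pdgfra, the receptor of platelet-derived growth factor found on fibroblasts, was at 6.71, 8.52 and 9.40 against 5.14, 6.99 and 9.15, a difference of 1.52 ± 0.36 (SE; limma adjusted p = 0.037). Etv6, a repressor of the ETS family, was at 9.06, 9.77 and 10.08 against 8.52, 8.98 and 9.68, a difference of 0.60 ± 0.13 (SE; limma adjusted p = 0.0126). Slc35d2, a nucleotide sugar transporter, Gprc5a, an orphan receptor of epithelia, Prrg4 and Cox6b2 differed by 1.30, 1.22, 0.75 and 0.43. The difference of Gprc5a was 0.61 without the 8 tumours with the highest levels of luminal epithelium genes, an alternative added after seeing the data.

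The row named Mir5125 rose by 0.64 ± 0.12 (SE; limma adjusted p = 0.00504), with 10.24, 10.76 and 11.11 in the higher and 9.39, 10.14 and 10.95 in the lower tumours. It is the only microRNA among the named genes, so its mature sequence is shown, from RefSeq (GRCm38.p6, chr17:23823339-23823358, plus strand), with the seed, bases 2 to 8, in capitals.
mmu-miR-5125: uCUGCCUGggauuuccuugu
The annotated position lies within the span of Srrm2, a splicing gene, which differed by 0.13 ± 0.04 (SE; limma adjusted p = 0.303). Signal from the mature RNA, its hairpin and the host transcript cannot be told apart on this array.

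Of the genes that fell, Zfp458, a KRAB-type zinc finger gene of chromosome 13, had the lowest adjusted p, with a difference of -0.70 ± 0.12 (SE; limma adjusted p = 0.00262). Over genes off chromosome 19 alone, its limma adjusted p was 0.101. Its levels were 6.22, 6.75 and 7.35 in the higher and 7.06, 7.56 and 8.09 in the lower tumours. Zfp873 and Zfp455 fell by 0.70 and 0.65. Other genes that fell belong to the clustered protocadherins of chromosome 18, adhesion proteins of neurons: Pcdhb15, Pcdhb18, Pcdhb17 and Pcdhb19 fell by 1.03, 1.02, 0.93 and 0.85. Members of this cluster are related in sequence, and whether the array's probes tell them apart was not tested, so each single value is uncertain. Kcnk2, a potassium leak channel, fell by 0.80 ± 0.19 (SE; limma adjusted p = 0.0346), and Tmem177, a mitochondrial protein, and Necab3 fell by 0.72 and 0.66.

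**Figure D5:**
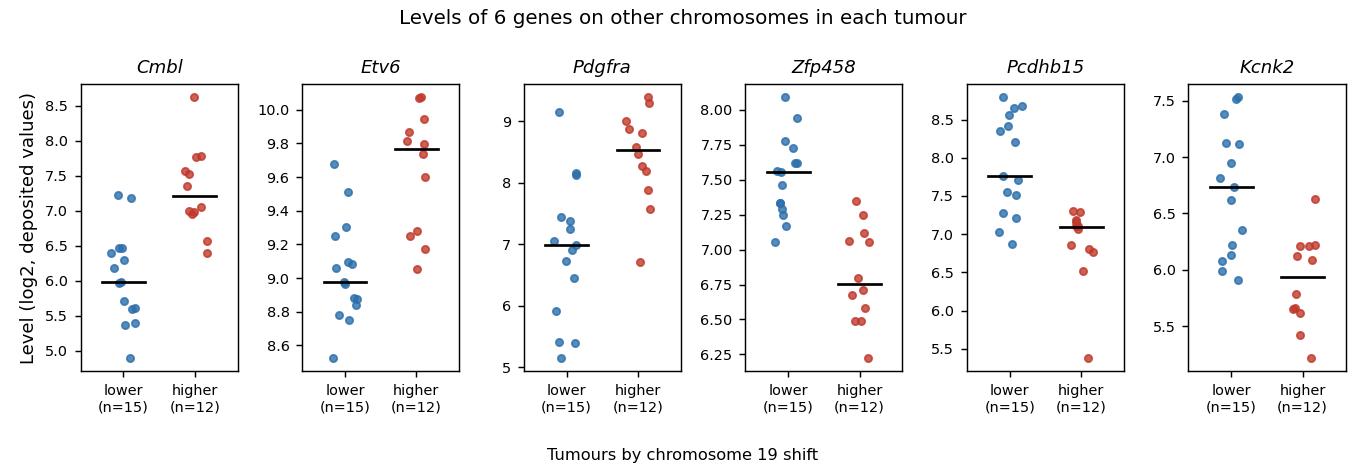
Levels (log2, deposited values) of 6 genes on other chromosomes in each of 15 lower and 12 higher tumours, with a line at each group's median. Cmbl, Etv6 and Pdgfra have the higher median in the higher tumours and Zfp458, Pcdhb15 and Kcnk2 the lower, and the groups overlap for all 6.

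Luminal, basal and androgen-responsive genes were mostly higher and neuroendocrine genes mostly lower on average in the higher tumours, but none of these genes passed the test and the groups overlapped widely. All 13 luminal epithelium genes had a difference above 0, with a median of 1.06, and 0 passed; Epcam differed by 1.49 ± 0.40 (SE; limma adjusted p = 0.0866) and Cldn4 by 1.55 ± 0.65 (SE; limma adjusted p = 0.422). The mean luminal level relative to each gene's mean over the tumours ran from -1.34 to 2.74 in the higher and from -1.52 to 2.02 in the lower tumours, and it exceeded 1 in 5 of 12 higher and 3 of 15 lower tumours. Of 15 neuroendocrine genes, 1 had a difference above 0 and the median was -0.46, led by Scg2 at -1.26 ± 0.41 (SE; limma adjusted p = 0.245) and Uchl1 at -0.67. The neuroendocrine level ran from -1.83 to 0.63 in the higher and from -2.50 to 0.85 in the lower tumours, with medians of 0.17 and 0.30. The lowest values among the higher tumours were -1.83 in P966, -1.82 in P425 and -1.41 in P1276. The lowest of the lower tumours was P471. All 10 androgen-responsive and secretory genes lay above 0 (median 0.84), as did 7 of 7 basal genes (0.35). Msmb, which encodes a secreted prostate protein, differed by 1.92 ± 0.82 (SE; limma adjusted p = 0.425), yet its medians were 4.74 and 4.55 and its highest levels 11.62 and 8.13 in the higher and lower tumours. The mean level of the androgen-responsive list relative to each gene's mean was highest in P425, at 4.06, and P219, at 2.44, both higher tumours.

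Without the 8 tumours of high luminal level, the difference in chromosome 19 shift was 0.392, as large as with them. The groups were divided by this shift, so that value is a description. It cannot show whether the shift depends on luminal level. Without these 8 tumours, 53 genes were called elsewhere, of which 9 were among the 28. Of the 53, 34 were higher and 19 lower, so the balance of directions was the reverse of the 8 and 20 in all tumours, although all 28 kept their sign. The part of the luminal and neuroendocrine levels in those calls was not tested beyond this and the analysis with both as covariates, in which 45 genes were called, 19 higher and 26 lower, 10 of them among the 28. All these counts were adjusted over all genes. Adjusted over genes off chromosome 19 alone, 0 passed in all tumours and 0 with the covariates. That adjustment was not run without the 8 tumours.

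Lists of other cell types and pathways on other chromosomes are given by counts, beside 40.8% of all genes elsewhere with a difference above 0. Above 0 lay 6 of 10 fibroblast and matrix genes (median 0.07, Pdgfra alone called), 7 of 7 smooth muscle (0.32), 6 of 6 skeletal muscle (0.47), 3 of 7 endothelial, 7 of 10 macrophage and myeloid (0.05), 7 of 8 T and NK cell (0.09), 1 of 5 B and plasma cell (-0.06), 7 of 7 interferon response (0.44) and 5 of 5 adipose genes (0.17). The muscle and adipose values came with few tumours of high level: the skeletal muscle list was at 3.36 in P219 and 2.36 in P268, with group medians of -0.30 in the higher and -0.31 in the lower tumours. Smooth muscle genes were at 2.47 in P219 and 2.21 in P425. The adipose list was at 2.93 in P425, and its group median was lower in the higher tumours, -0.32 against -0.17. Of the pathways, 3 of 13 mitosis genes (-0.09), 2 of 15 DNA replication genes (-0.15), 4 of 10 hypoxia and glycolysis genes (-0.10), 9 of 17 PI3K and mTOR genes (0.00) and 4 of 10 partners and targets of menin (-0.04) lay above 0. Over the 18 lists of genes elsewhere, markers included, which hold 175 genes, 0 passed limma's test apart from Pdgfra, and 24 others had an unadjusted p under 0.05. With Pdgfra these are 14.3% of the 175, beside 8.98% of all genes elsewhere. In the PI3K and mTOR list, Eif4ebp1, which restrains cap-dependent translation, differed by 0.65 ± 0.23 (SE; limma adjusted p = 0.319) and Pik3cb, a catalytic subunit of PI3K, by 0.60 ± 0.18 (SE; limma adjusted p = 0.173).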

How the data were processed

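Each of 27 tumours was measured on 1 array. The authors deposited log2 expression values, 41345 rows between 1.68 and 14.5. Partek is the tool named in the submitters' processing notes; its background correction, summarisation and normalization steps are not stated there. Rows with 1 gene symbol (23521; 1814 had several and 16010 none) were used, with the row of highest mean per gene. Of 22180 genes, 22126 were placed by gene ID or symbol on GRCm38.p6, used only for chromosome and gene order. Genes were fitted with limma 3.58.1 (R 4.3.3; lmFit, eBayes with trend) and Benjamini-Hochberg adjustment. On simulated data of 22126 genes in 12 against 15 tumours, 53 of 100 genes changed by 0.5 and 86 of 100 changed by 1 (log2) were recovered, with 4 false calls. The noise was independent between genes and the groups were not chosen by any of them, so these counts need not hold for the tumours. The members and the 25 gene lists were chosen with earlier results of these data known. Genes named on chromosome 19 are members of the 7 lists, the 10 largest and 5 smallest differences; elsewhere, up to 10 called genes in each direction and the leading members of lists, leaving out symbols such as those ending in Rik. Nothing in the labels ties p-values to more than the spread between these tumours. Alternatives changed the scaling, the minimum, the groups, the covariates and the adjustment, and left out each tumour in turn.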

Additional observations from a re-analysis of the deposited data

How the results depend on the processing

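The difference in chromosome 19 shift, 0.389, became 0.171 with no minimum level, where 1 tumour changed side, and 0.487 with a minimum of 7; leaving out each tumour gave 0.381 to 0.403. The count of 28 genes called off chromosome 19 became 45 with luminal and neuroendocrine levels as covariates, 59 with a continuous shift (26 shared) and 0 when adjusted over genes off chromosome 19. Among alternatives added after seeing the data, it was 10 with the continuous shift and 0 with the covariates or the minimum level, all 3 adjusted over genes off chromosome 19, and 53 without the 8 tumours of high luminal level. Leaving out each tumour gave 16 to 72. Of the 18 named genes elsewhere, 8 passed with covariates, 11 with groups divided at a shift of 0, 0 when adjusted over genes off chromosome 19, 8 with the continuous shift so adjusted, 0 with covariates or the minimum so adjusted, 9 without the 3 tumours nearest the threshold and 6 without the 8 luminal tumours; leaving out each tumour gave 11 to 18. No other chromosome was called under any setting run for it. None of the 18 named genes changed sign. Neither did the shift difference, but the groups were divided by that shift, so its sign was largely set by the rule. The small, uncalled differences of 11 of the 19 other chromosomes changed sign under at least 1 setting. With quantile normalization the difference was -0.000339 for chromosome 4, -0.000148 for chromosome 6, -0.00634 for chromosome 7 and -0.00511 for chromosome X. With no minimum level it was -0.0064 for chromosome 7 and 0.00422 for chromosome 15. With means over genes it was 0.0119 for chromosome 5, 0.00391 for chromosome 9, 0.0207 for chromosome 15 and 0.00828 for chromosome 17. With groups divided at a shift of 0 it was -5.98e-05 for chromosome 6 and -0.00639 for chromosome 7. Without the 8 luminal tumours it was 0.01001 for chromosome 2, 4.76e-05 for chromosome 5, -0.0252 for chromosome 6, -0.0132 for chromosome 7, -0.0131 for chromosome 11 and 0.0162 for chromosome 12. Leaving out each tumour gave -0.00578 to 0.00379 for chromosome 4, -0.00658 to 0.0044 for chromosome 7, -0.0167 to 0.0201 for chromosome 6, -0.0187 to 0.0275 for chromosome X, -0.0151 to 0.000137 for chromosome 17 and -0.0165 to 0.00986 for chromosome 15. The causes were not tested. No paired analysis was possible because the labels put all tumours in 1 group. The number of arrays, 27, limits the precision.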

Other observations

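Families of genes on other chromosomes were noticed after their values were seen and are described without a test of the family. All 22 measured Pcdhb genes, the clustered beta protocadherins, had a difference below 0 between higher and lower tumours, with a median of -0.76, beside 59.2% of all genes elsewhere below 0. In the comparison over all genes 4 were called lower, beside 0.0935% of genes elsewhere. Without the 8 tumours of high luminal level, 21 of the 22 lay below 0 with a median of -0.38, and with luminal and neuroendocrine levels as covariates 20 did, with a median of -0.35. The mean level of the family relative to each gene's mean over the tumours ran from -2.03 to 0.32 in the higher and from -0.94 to 0.98 in the lower tumours, so the groups overlapped.

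Of 368 zinc finger genes named Zfp on other chromosomes, 281 (76.4%) had a difference below 0, beside 59.2% of all 21400 genes elsewhere, with a median of -0.12. Without the 8 luminal tumours the share was 66.6%, beside 59.6% of all genes, and the median was -0.07. Of these genes 7 were called lower and 0 higher in limma's test (0.0935% of genes elsewhere were called lower).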
